A study of Mus musculus with 13 samples.

Results

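The genes described here are 9 genes known as markers of macrophages of the bone marrow, namely Vcam1, C1qa, C1qb, C1qc, Mrc1, Hmox1, Adgre1, Cd5l and Axl, out of 24062 gene rows measured in LK cells. LK cells are marrow cells sorted as lineage-negative, Sca-1-negative and c-kit-positive, a fraction made mostly of committed myeloid, erythroid and megakaryocyte progenitors. The genes were named one by one and were chosen by their measured levels in these same libraries, with differences between the genotypes already seen, so their levels and differences are given as a description. Calls from the fit over all genes are printed beside the share of all genes called, and support nothing about the 9. Adgre1 was found under its older symbol, Emr1. Of the 9 genes, 7 passed a filter on low values, a mean of at least 0 on the log2 scale of CPM (the reads of a gene scaled to a common library total). C1qa, with a mean of -2.77 log2 CPM, and Cd5l, with -0.62, did not pass, and C1qc at 0.51 and C1qb at 0.67 lay just above the limit.

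The libraries came from mice whose blood system had been rebuilt by transplantation. Boy/J recipients were irradiated with 7 Gy and, 3 h later, 4.75 Gy, and received marrow of 1 of 4 genotypes, and the labels give an age of 2 to 5 months. The genotypes were TIFAB-/-;miR-146a-/- (dKO, 4 libraries), TIFAB-/-;miR-146a+/+ (TIFAB_KO, 3 libraries), TIFAB+/+;miR-146a-/- (miR-146a_KO, 3 libraries) and TIFAB+/+;miR-146a+/+ (WT, 3 libraries). TIFAB is an inhibitor of the TIFA and TRAF6 signalling proteins and miR-146a is a microRNA that represses Traf6 and Irak1. Both genes lie in the region lost in human del(5q) myelodysplastic syndrome, and the study asked how losing both compares with losing either one. The genotypes are those of the donor marrow as a whole, with no Cre line or cell type named, and all 4 groups share the irradiation and the Boy/J host. Tissue macrophages of a recipient can outlive irradiation, and reads of donor and of remaining recipient cells cannot be told apart here. The labels state 3 mice per group and do not say that each library came from a separate mouse, so errors measure the spread between libraries.

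Macrophages of the marrow form erythroblastic islands, in which a central macrophage holds maturing red cell precursors and takes up the nuclei they expel. They also clear dying cells and old red cells, break down heme and return the iron. Vcam1 is the adhesion receptor by which such a macrophage holds cells that carry the integrin alpha4 beta1. C1qa, C1qb and C1qc encode the chains of C1q, which starts the classical complement pathway and is made largely by tissue macrophages. Mrc1 (CD206) is a mannose receptor, Adgre1 is the F4/80 antigen, Cd5l is a secreted protein that protects macrophages from apoptosis, Axl is a receptor kinase for the uptake of dying cells, and Hmox1 is the enzyme that opens heme. Mature macrophages are not among the c-kit-positive progenitors for which an LK sort is made.

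Libraries held 7.83 to 12.8 M reads each. Tifab had 3.23 to 11.0 CPM in dKO, 8.95 to 12.8 CPM in TIFAB_KO and 64.4 to 70.8 CPM in miR-146a_KO, against 39.6 to 49.4 CPM in WT. The row of the miR-146a gene had 0 reads in all 13 libraries and checks no label. The c-kit gene Kit had 269.6 to 459 CPM and Mpo a mean of 10382 CPM. Of the genes on which the gate removes cells, Ly6a (Sca-1) had a mean of 2.20 CPM and Cd3e one of 0.455 CPM, but Itgam (CD11b) had 61.2 CPM, and the 9 with a row summed to 337 to 425 CPM per library, most of it Ptprc (CD45), which progenitors express. TIFAB_KO replicate 3 and dKO replicate 3 stood apart from the other libraries, with a median correlation to the others of 0.947 and 0.951, against 0.962 to 0.974 in the remaining 11, and results are also given without them. TIFAB_KO replicate 3 also had the largest total and the largest share of 45S pre-rRNA (Rn45s), 10.7% of reads against 3.85 to 9.09% elsewhere.

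Promoter sequence is shown for these genes because several of them moved together between libraries. RefSeq windows on build GRCm38.p6, reaching from 250 bases before to 50 after the transcription start, were held for 5 of the 9 genes. All 5 contained GAGGAA or its reverse complement TTCCTC, a core that ETS family factors such as PU.1 can bind. The motif was picked after these windows had been read, and 28.28% of all 32851 windows of the same 300 bases hold it on either strand, so the match is a description and marks no site. The lines below give 46 bases around the first match in each, all before the start, 5′ to 3′ on the strand of the gene, with the motif in capitals. The C1qb stretch is chr4:136886205-136886250 (minus strand), the C1qc stretch chr4:136893082-136893127 (minus), the Cd5l stretch chr3:87357795-87357840 (plus), the Mrc1 stretch chr2:14229214-14229259 (plus) and the Axl stretch chr7:25788838-25788883 (minus).
C1qb: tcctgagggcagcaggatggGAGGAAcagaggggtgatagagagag
C1qc: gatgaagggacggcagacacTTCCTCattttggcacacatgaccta
Cd5l: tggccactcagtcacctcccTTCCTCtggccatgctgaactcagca
Mrc1: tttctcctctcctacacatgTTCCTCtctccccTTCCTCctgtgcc
Axl: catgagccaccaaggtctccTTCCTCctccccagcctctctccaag

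In these 46 bases C1qb carries the motif as GAGGAA and the other 4 carry it as TTCCTC, and Mrc1 holds 2 copies in its stretch and 3 in its window. The first match lay 30 bases before the start in C1qb, at 66 in Cd5l, 130 in Axl, 180 in Mrc1 and 193 in C1qc.

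Levels differed widely among the 9 genes. Per kilobase of the longest annotated transcript, the order of mean CPM over the 13 libraries was Vcam1 with 6.79 CPM per kb, Hmox1 with 4.27, C1qb with 2.17, Adgre1 with 1.64, Axl with 1.63, C1qc with 1.57, Mrc1 with 1.06, Cd5l with 0.677 and C1qa with 0.222. The libraries of neighbouring genes overlapped at every step of this order. Among genes past the filter the spread over the 13 libraries was large. The SD of log2 CPM of C1qb exceeded that of 99.4% of the 11867 genes past the filter, and the same share was 99.1% for Mrc1, 98.9% for Vcam1 and C1qc, 96.1% for Axl, 93.4% for Hmox1 and 91.2% for Adgre1. In a bulk library, a change in the number of cells of a type cannot be told apart from a change in the RNA of each cell.

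Vcam1, the adhesion receptor of the island macrophage (chr3:116109949-116129688, minus strand), had the highest level. It had 23.9, 26.5, 82.0 and 30.8 CPM in dKO, 11.1, 49.4 and 42.0 CPM in TIFAB_KO, 20.4, 25.7 and 20.6 CPM in miR-146a_KO, and 17.4, 3.87 and 6.87 CPM in WT. All 4 dKO and all 3 miR-146a_KO libraries lay above all 3 WT libraries, while TIFAB_KO replicate 1 lay within the WT range. Means were 40.8 ± 27.6 CPM in dKO (SD, n = 4), 34.2 ± 20.3 in TIFAB_KO, 22.2 ± 3.00 in miR-146a_KO and 9.39 ± 7.12 in WT (SD, n = 3 each). The log2 difference was 2.19 ± 0.50 (SE) for dKO against WT, 1.87 ± 0.54 for TIFAB_KO against WT and 1.51 ± 0.54 for miR-146a_KO against WT. An antisense gene, Gm43109, is annotated across Vcam1, and the sources used here do not say whether counting used strand, so reads of the 2 genes cannot be told apart.

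The 3 C1q genes lie side by side on the minus strand of chromosome 4, between 136880129 and 136898803. C1qb had 1.47, 1.61, 0.807 and 5.20 CPM in dKO, 0.477, 4.43 and 8.21 CPM in TIFAB_KO, 0.899, 1.71 and 3.96 CPM in miR-146a_KO, and 0.834, 0.407 and 0.615 CPM in WT. The 3 WT libraries were all low, the miR-146a_KO libraries lay above them, and 1 dKO and 1 TIFAB_KO library lay within their range. C1qc had 1.89, 1.49, 0.461 and 4.004 CPM in dKO, 0.597, 3.07 and 6.18 CPM in TIFAB_KO, 0.449, 2.85 and 1.02 CPM in miR-146a_KO, and 1.08, 0.713 and 0.821 CPM in WT. Its groups overlapped in every comparison.

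The C1q chains were not read evenly. C1qa had 35 reads over the 13 libraries, against 330 for C1qb and 269 for C1qc, and per kilobase its reads were 0.111 of those of C1qb. It had 0, 0, 0 and 6 reads in dKO, 0, 4 and 17 reads in TIFAB_KO, 0, 4 and 2 reads in miR-146a_KO, and 2, 0 and 0 reads in WT. In the 7 libraries at 0 reads the depth allows up to 3 reads, which is 0.306 to 0.372 CPM. Of the other 6 libraries, dKO replicate 4, TIFAB_KO replicates 2 and 3 and miR-146a_KO replicate 2 had more than 3 reads.

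Mrc1, the mannose receptor (chr2:14229392-14332057, plus strand), had 3.36, 5.82, 0.576 and 11.5 CPM in dKO, 3.58, 10.7 and 15.9 CPM in TIFAB_KO, 2.58, 5.22 and 6.52 CPM in miR-146a_KO, and 3.59, 2.44 and 2.05 CPM in WT. It was lowest of all 13 libraries in dKO replicate 3, the library in which Vcam1 was highest. In TIFAB_KO, replicate 1 had 3.5807 CPM, just under the 3.5853 CPM of the highest WT library on this scale. On the deposited log2 scale, which adds 0.5 read to each value, the same 2 libraries stood the other way round and the groups did not overlap. Axl, the uptake receptor (chr7:25757273-25788705, minus strand), had 3.57, 6.44, 3.57 and 13.7 CPM in dKO, 5.01, 11.7 and 18.2 CPM in TIFAB_KO, 4.38, 4.55 and 8.94 CPM in miR-146a_KO, and 3.84, 2.24 and 4.31 CPM in WT. All TIFAB_KO and all miR-146a_KO libraries lay above the WT libraries for Axl, and 2 of the dKO libraries lay within the WT range.

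Adgre1, the F4/80 antigen (chr17:57358691-57483527, plus strand), had 7.36, 6.93, 3.00 and 4.69 CPM in dKO, 5.25, 5.24 and 10.9 CPM in TIFAB_KO, 5.84, 5.03 and 4.47 CPM in miR-146a_KO, and 5.17, 3.97 and 1.33 CPM in WT. The TIFAB_KO libraries lay above WT by a narrow margin, since the lowest of them had 5.24 CPM and the highest WT library 5.17 CPM. Cd5l, the survival factor (chr3:87357881-87371073, plus strand), had 15, 2, 8 and 36 reads in dKO, 0, 32 and 70 reads in TIFAB_KO, 0, 17 and 11 reads in miR-146a_KO, and 5, 2 and 1 reads in WT. Both libraries at 0 reads belonged to single knockouts, and in the remaining libraries of these groups the reads exceeded all 3 WT libraries.

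Hmox1, the heme oxygenase (chr8:75093621-75100589, plus strand), had 4.62, 4.09, 4.84 and 13.04 CPM in dKO, 3.46, 5.24 and 19.7 CPM in TIFAB_KO, 7.30, 7.78 and 6.13 CPM in miR-146a_KO, and 3.42, 3.57 and 3.90 CPM in WT. The WT libraries were close together, and every dKO and miR-146a_KO library lay above them. Group means were 6.65 ± 4.27 CPM in dKO (SD, n = 4), 9.47 ± 8.91 in TIFAB_KO, 7.07 ± 0.847 in miR-146a_KO and 3.63 ± 0.246 in WT (SD, n = 3 each). The miR-146a_KO libraries were even, whereas the dKO and TIFAB_KO means rested on 1 high library each.

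**Figure D1:**
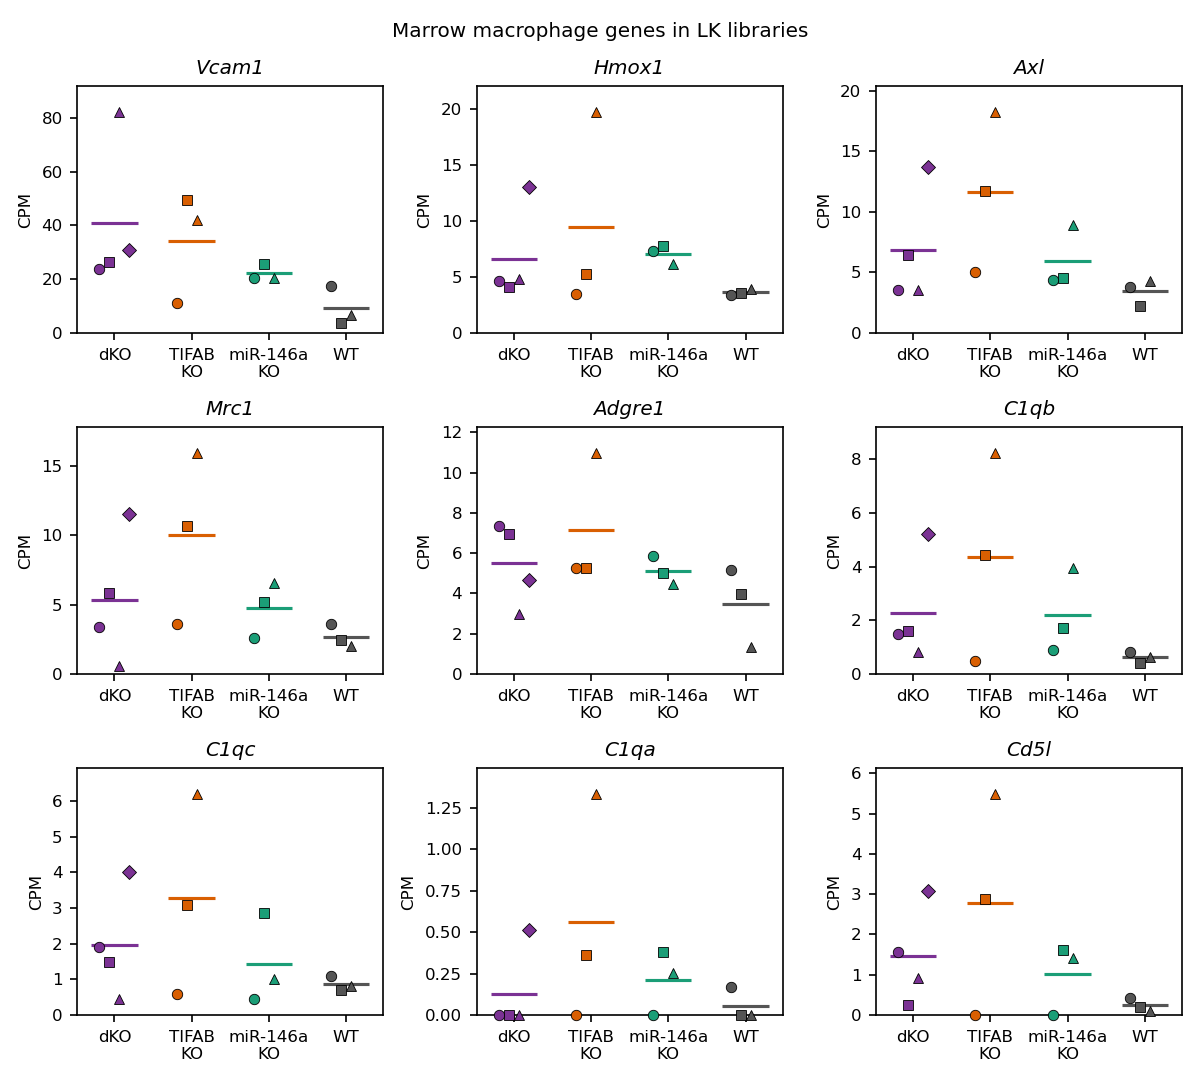
Level of the 9 macrophage genes in each library, in CPM on a linear axis that starts at 0 and differs between panels. Each symbol is 1 library (circle, square, triangle and diamond for replicates 1 to 4) and each bar is a group mean; the highest symbol is TIFAB_KO replicate 3 in 8 panels and dKO replicate 3, at 82.0 CPM, in the Vcam1 panel.

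Compared with WT, the fitted difference over all libraries was above 0 for all 9 genes in each knockout. Leaving out 1 library turned 3 of these genes in 1 comparison each. Without dKO replicate 4, dKO against WT gave -0.51 for C1qa and -0.19 for Mrc1, against 0.31 and 0.38 with it, and without miR-146a_KO replicate 2, miR-146a_KO against WT gave -0.29 for C1qc, against 0.36 with it. C1qa in dKO against WT was also just below 0, at -0.03, without WT replicate 2 or WT replicate 3. In TIFAB_KO against WT the median of the 9 log2 differences was 1.68, with -0.01 over all 11867 genes tested, of which 47.6% were above 0. In miR-146a_KO against WT it was 0.95, with 0.09 over all genes and 62.2% above 0. In dKO against WT it was 0.79, with 0.08 over all genes and 60.05% above 0. These 3 comparisons share the same 3 WT libraries, whose low values enter each of them, and they are not separate evidence.

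By gene, the differences beyond Vcam1 were uneven. C1qb differed by 1.52 ± 0.79 log2 in dKO against WT (SE), by 2.07 ± 0.85 in TIFAB_KO against WT and by 1.55 ± 0.85 in miR-146a_KO against WT. C1qc differed by 0.80 ± 0.77, 1.36 ± 0.83 and 0.36 ± 0.83 in the same order of comparisons. Mrc1 showed 0.38 ± 0.70 in dKO against WT, 1.68 ± 0.75 in TIFAB_KO against WT and 0.75 ± 0.75 in miR-146a_KO against WT. For Axl the 3 differences were 0.79 ± 0.47, 1.61 ± 0.51 and 0.75 ± 0.51, for Adgre1 0.77 ± 0.43, 1.14 ± 0.46 and 0.74 ± 0.46, and for Hmox1 0.69 ± 0.47, 0.96 ± 0.50 and 0.95 ± 0.50. Cd5l, in a fit of every row with a read, gave 2.09 ± 1.36, 1.92 ± 1.45 and 0.98 ± 1.45. Its values and those of C1qa include libraries at 0 reads, so their size depends on the 0.5 read added to each value.

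**Figure D2:**
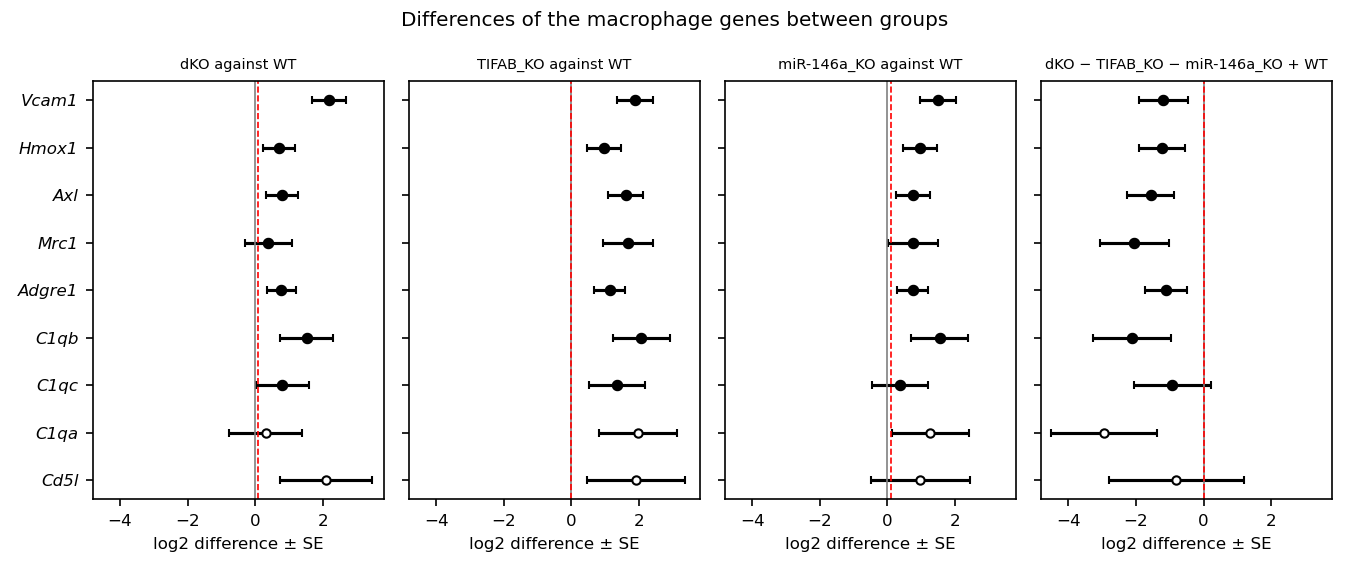
Log2 differences of the 9 genes (points) with their SE (bars) for each knockout against WT and, at the right, for the interaction (dKO plus WT, less both single knockouts). Filled points are genes past the filter on low values, open points are C1qa and Cd5l, and the dashed line is the median of all 11867 genes tested; all points lie above 0 in the first 3 panels and below 0 in the last.

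Across all genes tested, limma with a Benjamini-Hochberg adjusted p under 0.05 called 0.0674% of genes in dKO against WT, 0.0169% in TIFAB_KO against WT and 0.0843% in miR-146a_KO against WT. It called 0 of the 7 macrophage genes past the filter in each of them, and limma-voom weights also called 0. At an unadjusted p under 0.05 the counts were 1 of 7 macrophage genes and 1668 of all genes in dKO against WT, 5 and 606 in TIFAB_KO against WT, and 1 and 1131 in miR-146a_KO against WT. Vcam1 was called in dKO against WT when dKO replicate 4 was left out, a fit that called 336 genes, and when TIFAB_KO replicate 1 was left out, a fit that called 12. It was also called in TIFAB_KO against WT when TIFAB_KO replicate 1 was left out, a fit that called 44 genes. Because these contrasts were known when the genes were chosen, nothing is read from these counts or calls.

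Groups that did not overlap on the log2 scale were counted in the same way. In TIFAB_KO against WT the libraries did not overlap for 3 of the 7 genes (Mrc1, Adgre1 and Axl), and for 8.52% of all genes tested. In miR-146a_KO against WT they did not overlap for 4 of 7 (Vcam1, C1qb, Hmox1 and Axl), and for 21.9% of all genes. In dKO against WT they did not overlap for 2 of 7 (Vcam1 and Hmox1), and for 12.5% of all genes. Axl was the gene named in both single knockouts, and Vcam1 and Hmox1 were those named in both miR-146a_KO and dKO.

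The double knockout was next set against each single knockout. In dKO against TIFAB_KO, 2 of 9 log2 differences were above 0, and the median was -0.55, with 0.09 over all genes tested. The 2 genes above 0 were Vcam1 at 0.32 and Cd5l at 0.17, and the lowest were C1qa at -1.67 and Mrc1 at -1.29. Without TIFAB_KO replicate 1 both Vcam1, at -0.36, and Cd5l, at -1.85, were below 0. The direction of this median rested on TIFAB_KO replicate 3, without which it was 0.15. In dKO against miR-146a_KO, 5 of 9 differences were above 0 and the median was 0.03, with -0.01 over all genes; Vcam1 differed by 0.68, Hmox1 by -0.26 and Adgre1 by 0.03. Limma called 0.0337% of genes in dKO against TIFAB_KO and 0.0506% in dKO against miR-146a_KO, and 0 of the 7 macrophage genes in both, also at an unadjusted p under 0.05, where 2194 and 229 of all genes passed. Non-overlapping libraries were found for 0 of 7 genes in both comparisons, against 10.7% and 3.72% of all genes.

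The design also asks whether the difference of dKO from WT equals the sum of the single ones. This interaction, the dKO level plus the WT level less those of both single knockouts, was below 0 for all 9 genes over all libraries, with a median of -1.22 against 0.01 over all genes tested. It was -1.19 ± 0.73 (SE) for Vcam1, -2.11 ± 1.16 for C1qb, -2.05 ± 1.02 for Mrc1 and -1.56 ± 0.69 for Axl. Limma called 0% of all genes and 0 of 7 macrophage genes, with 1 of the 7 and 502 of all genes at an unadjusted p under 0.05. The low WT libraries and the high TIFAB_KO replicate 3 both enter it. Without TIFAB_KO replicate 3 the median was -0.91, with Cd5l at 0.43 (0.04 without miR-146a_KO replicate 2), and without TIFAB_KO replicate 3 and dKO replicate 3 together it was -0.78, with C1qc at 0.32 and Cd5l at 0.50.

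Libraries of 1 genotype spread widely. A mean deviation, in log2 CPM from the mean of each gene over 13 libraries, was taken over the 7 genes past the filter. The dKO libraries had -0.02, 0.17, -0.68 and 1.08, the TIFAB_KO libraries -0.66, 0.88 and 1.71, the miR-146a_KO libraries -0.39, 0.27 and 0.31, and the WT libraries -0.42, -1.17 and -1.06. The highest libraries were TIFAB_KO replicate 3, dKO replicate 4 and TIFAB_KO replicate 2, and the lowest were WT replicates 2 and 3. Group means were 0.14 ± 0.73 in dKO (SD, n = 4), 0.64 ± 1.20 in TIFAB_KO, 0.06 ± 0.39 in miR-146a_KO and -0.88 ± 0.40 in WT (SD, n = 3 each). TIFAB_KO replicate 1 and dKO replicate 3 lay within the WT range, so that neither genotype was uniformly high.

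**Figure D3:**
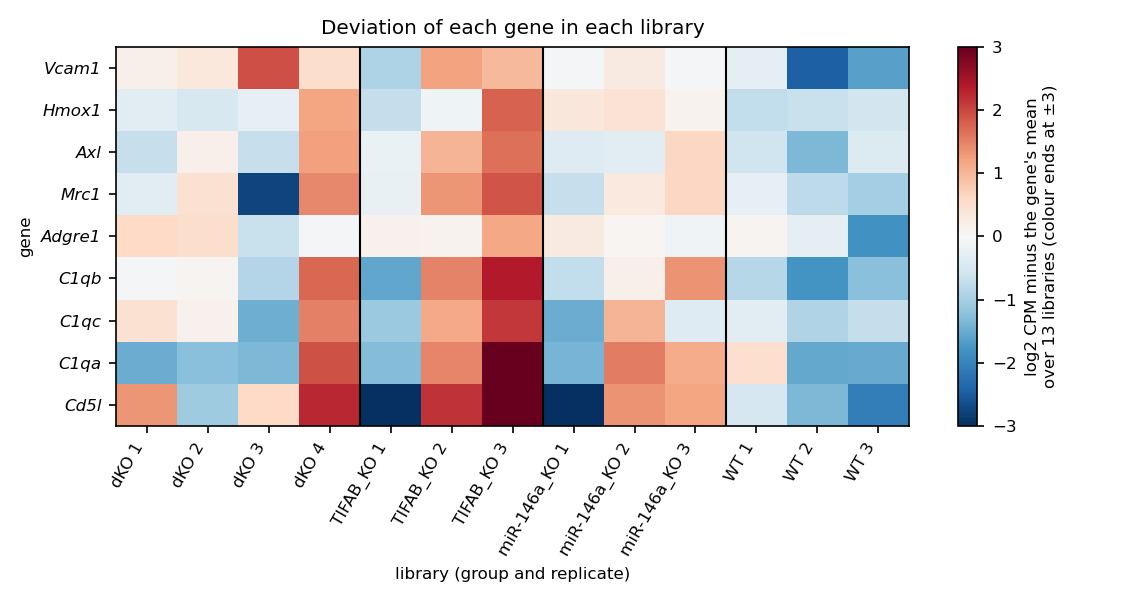
Log2 CPM of each gene in each library minus the mean of that gene over the 13 libraries, with red for higher and blue for lower and the colour scale ending at 3 in both directions. TIFAB_KO replicate 3, TIFAB_KO replicate 2 and dKO replicate 4 are red across most genes, WT replicates 2 and 3 are blue, and dKO replicate 3 is red for Vcam1 and blue for Mrc1.

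A few libraries thus held most of the high values. TIFAB_KO replicate 3 had the highest value of 8 of the 9 genes and was among the top 4 libraries for all 9. The top 4 also included dKO replicate 4 for 8 genes and TIFAB_KO replicate 2 for 7, while WT replicate 2 was lowest for Vcam1, C1qb and Axl. Total reads and Rn45s moved in part with this pattern. The mean of the 7 genes had a correlation over 13 libraries of 0.53 with total reads and 0.31 with the Rn45s share, which became 0.43 and 0.17 without the 2 libraries farthest from the median of each measure. Their part in the differences was not tested. Without TIFAB_KO replicate 3 the median of the 9 genes in TIFAB_KO against WT was 0.93, and Hmox1 had the lowest value, 0.23. Without TIFAB_KO replicate 1 the median was 2.29.

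Among themselves the 9 genes varied together, with Vcam1 and Adgre1 looser than the rest. All 36 pairs had a Pearson r above 0 over the 13 libraries, with a median of 0.61, and 25 were over 0.5. These values share their libraries, depth and normalization and are given without a test. The closest pair was C1qb and Axl at 0.91, which stayed at 0.91 with group means removed and was 0.84 without the 2 libraries farthest from the median of C1qb. Not every pair stayed above 0. With group means removed Vcam1 had an r of -0.05 with Mrc1 and -0.02 with Adgre1, and without the 2 farthest libraries these were -0.13 and -0.20, and Adgre1 and Cd5l had -0.14. C1qa and C1qb had an r of 0.85, C1qb and C1qc 0.83, and C1qa and C1qc 0.82. The loosest pair was Vcam1 and Mrc1 at 0.17, where dKO replicate 3 combined the highest Vcam1 with the lowest Mrc1. The median r of a gene with the other 8 was 0.82 for C1qb and 0.78 for C1qa and C1qc, against 0.46 for Vcam1 and 0.43 for Adgre1. C1qa had 0 reads in 7 libraries and Cd5l in 2, so the r values of both rest in part on the added 0.5 read.

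**Figure D4:**
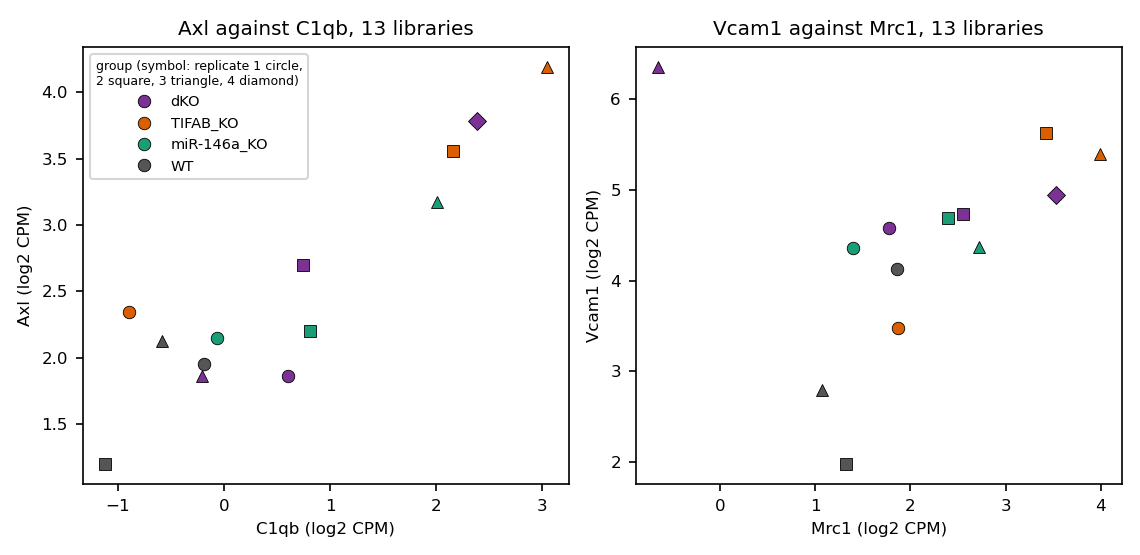
Log2 CPM of Axl against C1qb (left, r = 0.91) and of Vcam1 against Mrc1 (right, r = 0.17), with 1 symbol per library coloured by genotype. In the right panel dKO replicate 3 is the symbol at the upper left, apart from the other 12.

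The genes outside the 9 whose levels ran most closely with them were named by Pearson r over the 13 libraries. Of 11015 candidate genes, 30 had an r over 0.75 with the mean of the 7 macrophage genes, and the median over all candidates was -0.03. The 10 closest were Sdc3 at 0.87, Zfp87 at 0.85, Erich1 at 0.84, Sdr42e1 at 0.83, Hmgxb4 at 0.82, Lgmn, Stk39 and Car9 at 0.80, and Camkk1 and Galm at 0.79. Sdc3, a cell surface proteoglycan, had 3.78, 2.60, 4.26 and 7.07 CPM in dKO, 1.55, 4.43 and 8.29 CPM in TIFAB_KO, 2.36, 3.60 and 3.96 CPM in miR-146a_KO, and 2.75, 1.94 and 1.33 CPM in WT. Lgmn, a lysosomal protease abundant in macrophages, had 3.99, 4.09, 1.498 and 4.004 CPM in dKO, 1.91, 2.80 and 5.32 CPM in TIFAB_KO, 1.91, 2.85 and 2.30 CPM in miR-146a_KO, and 2.92, 1.94 and 1.74 CPM in WT. Both were highest in TIFAB_KO replicate 3.

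With the mean of each group removed, the closest were other genes, among them Eif3m, l7Rn6 and Nol7 at 0.95, Batf at 0.93, Hist1h1a, Klhl36 and Ran at 0.92, and Pdhx and Zfp958 at 0.91. Eif3m is a subunit of a translation initiation factor, Ran a GTPase of nuclear transport and Hist1h1a a linker histone.

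Single genes had their own nearest neighbours. Mrc1 ran most closely with Igf1, a growth factor made by many tissue macrophages, at 0.97, followed by Usp18 at 0.92 and Erbb3 at 0.91. Igf1 had 1.16, 1.61, 0 and 5.20 CPM in dKO, 1.07, 3.795 and 6.10 CPM in TIFAB_KO, 0.674, 3.32 and 3.32 CPM in miR-146a_KO, and 0.834, 0.407 and 0.513 CPM in WT, so that it too was lowest in dKO replicate 3. In that library Mrc1 had 5 reads, Erbb3 2 and Igf1 0, and no r without it is given. Vcam1 had other neighbours, with Pilrb2 at 0.92, St6gal1 at 0.89 and Gpr84 at 0.88. All of them, like Vcam1, were highest in dKO replicate 3, with 67, 39 and 125 reads. In WT replicate 2 they had 1, 3 and 2 reads, and no r without these libraries is given. Gpr84, a receptor for medium-chain fatty acids, had 14.4 CPM in dKO replicate 3 and at most 3.43 CPM in any other library.

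The neighbours of Adgre1 were Arl11 at 0.91, Hist1h3g at 0.88 and Mpeg1, a pore-forming protein of macrophages and monocytes, at 0.84. C1qb ran with Zfp87, Hmgxb4 and Sdc3 (0.91, 0.91 and 0.87), C1qc with Lgmn, Tefm and Tyms (0.86, 0.83 and 0.82), and Hmox1 with Orc6, Uqcrq and Ifngr2 (0.86, 0.84 and 0.81). Hmgxb4 was also among the genes closest to Axl, at 0.84.

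Other genes of resident macrophages were taken from a list of 23, of which 7 passed the filter (Cd68, Maf, Csf1r, Sirpa, Ctsb, Lgmn and Cd163). Limma called 0 of these 7 in each of the 6 contrasts, and at an unadjusted p under 0.05 that count was 1 in dKO against WT, 2 in TIFAB_KO against WT and 1 in miR-146a_KO against WT. Over all 11867 genes tested the unadjusted counts were 1668, 606 and 1131 in the same order, and nothing is read from them. Their median log2 difference was 0.18 in dKO against WT, 0.41 in TIFAB_KO against WT and 0.12 in miR-146a_KO against WT, with 7, 6 and 4 of the 7 above 0. The largest of these differences belonged to Maf, a transcription factor of macrophages, at 1.87 ± 0.57 in dKO against WT, 1.30 ± 0.61 in TIFAB_KO against WT and 2.12 ± 0.61 in miR-146a_KO against WT (SE). The mean of the 7 genes correlated at 0.87 with the mean of the macrophage genes over the 13 libraries. Gene by gene the r ran from -0.06 to 0.80, with a median of 0.51 and 4 of the 7 over 0.5.

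Within that list the level and the pattern of a gene went different ways. The 3 with the highest level were Csf1r, the receptor for colony-stimulating factor 1, at 127 CPM, the lysosomal protease gene Ctsb at 91.2 CPM and Sirpa at 49.6 CPM, with an r of -0.06, 0.71 and 0.32 to the macrophage mean. The 2 receptors described next were picked after their values were seen. Siglec1 (CD169) had 1.05, 0.124, 0 and 1.87 CPM in dKO, 0.358, 2.26 and 4.22 CPM in TIFAB_KO, 0.337, 0.0949 and 1.79 CPM in miR-146a_KO, and 0.417, 0 and 0.205 CPM in WT. Cd163, the haptoglobin-hemoglobin receptor, had 20.3 to 25.3 CPM in dKO apart from replicate 3 at 12.9, 15.2 to 21.7 CPM in TIFAB_KO, 17.9 to 19.1 CPM in miR-146a_KO and 17.3 to 21.6 CPM in WT, with an r of 0.01. Spic and Stab1, also picked after their values were seen and also below the filter, did not show the pattern of Siglec1. Spic had 0.716, 0.994 and 0.860 CPM in TIFAB_KO and 1.00, 0.815 and 0.513 CPM in WT. Stab1 had 0.955, 0.361 and 0 CPM in TIFAB_KO and 1.58, 1.43 and 0.205 CPM in WT. Some other genes of the list were near 0, with means of 0.030 CPM for Clec4f, 0.069 for Msr1, 0.083 for Lyve1 and 0.039 for Folr2.

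**Figure D5:**
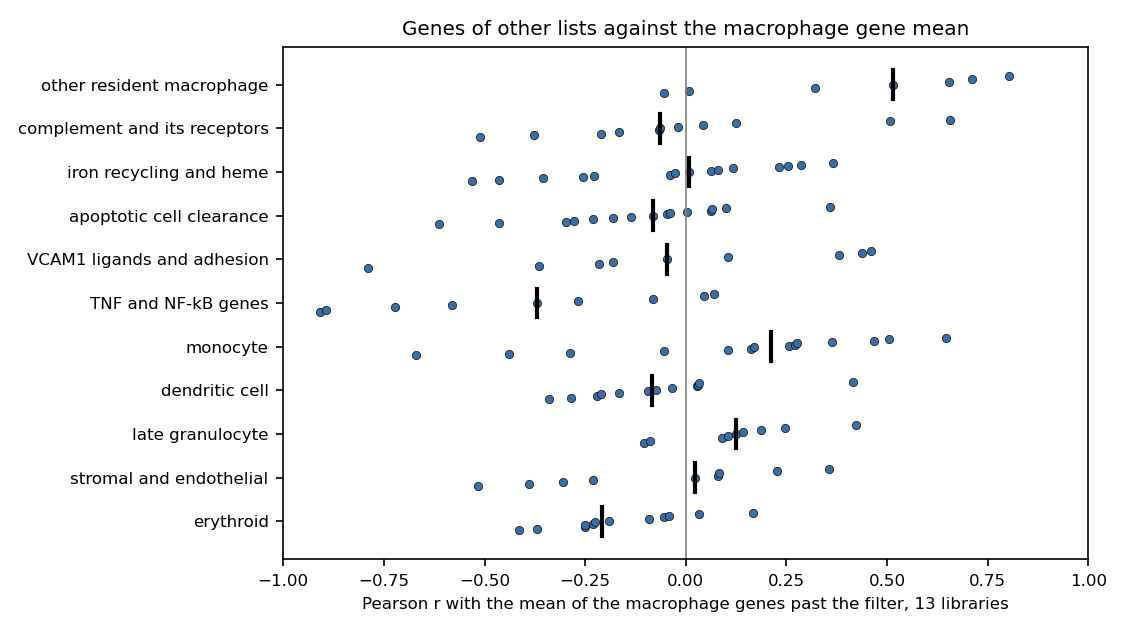
Pearson r over 13 libraries between single genes of 11 other lists (points, genes past the filter) and the mean of the 7 macrophage genes, with a bar at the median of each list. The medians are 0.51 for other resident macrophage genes and -0.37 for TNF and NF-kB genes.

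Lists of the pathways in which the 9 genes take part held 0 called genes in each of the 6 contrasts, and over the 5 lists from iron to TNF the count at an unadjusted p under 0.05 was 0 to 4 in a list and contrast. Over all 11867 genes tested that count was 229 to 2194 in a contrast. Of the iron recycling and heme list 15 of 17 genes were tested, with median log2 differences of 0.01 in dKO against WT, 0.01 in TIFAB_KO against WT and -0.09 in miR-146a_KO against WT, beside 0.69, 0.96 and 0.95 for Hmox1. Its genes of highest level were Ncoa4, the ferritin autophagy receptor, at 649 CPM, and the ferritin chains Fth1 at 453 and Ftl1 at 381 CPM. Of the complement list 11 of 20 were tested, with medians of 0.15, 0.19 and 0.08 in the same order, led in level by Calr at 1053 CPM, Cd93 at 666 and Cr1l at 156 CPM. Of the list for clearance of dying cells 15 of 22 were tested, with medians of -0.05, 0.01 and 0.05, led by Rac1, Ucp2 and Elmo1 at 810, 601 and 251 CPM.

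The partners of Vcam1 were read at high level. Itga4, the alpha4 chain of its integrin ligand, had a mean of 872 CPM, Cd44 726 CPM and Tln1 470 CPM, and the 9 tested of 10 genes of that list had medians of -0.04, -0.10 and -0.16 in dKO, TIFAB_KO and miR-146a_KO against WT. TNF and NF-kB signalling is known to control Vcam1 in endothelium. A list of 10 other genes of that pathway, which does not hold Vcam1, ran against the macrophage mean, of which Vcam1 is a part. Its list mean had an r of -0.73 to that mean, and its genes of highest level were Tnfaip3 with an r of -0.89, Nfkbia with -0.91 and Selp with -0.37. Nfkbia, the NF-kB inhibitor, had 53.9, 49.9, 105 and 47.8 CPM in dKO, 72.0, 32.9 and 28.5 CPM in TIFAB_KO, 64.7, 51.1 and 56.5 CPM in miR-146a_KO, and 54.7, 87.2 and 88.8 CPM in WT. These r values are with the mean of the 7 genes and not with Vcam1 alone. In dKO replicate 3, where Vcam1 was highest, Nfkbia, Icam1 (16.5 CPM), Nfkb2 (20.3 CPM) and Irf1 (47.0 CPM) were also at their highest. Tnfaip3, Relb, Ccl2, Sele and Selp of the same list were not. Apart from Tnfaip3, Nfkbia and Selp, the genes of this list named here were picked after their values were seen. Limma called 0 of the 9 tested genes of this list, and the medians were -0.23, -0.31 and 0.01.

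Markers of other cells that could carry these genes were set beside them. Over the 16 monocyte genes, 14 tested, the summed level was 1100 to 1407 CPM in dKO, 1372 to 1669 in TIFAB_KO, 1136 to 1383 in miR-146a_KO and 936 to 1280 in WT, so that every TIFAB_KO library lay above every WT library. The monocyte list mean correlated at 0.23 with the macrophage mean, and its highest genes were F13a1 at 305 CPM, Irf8 at 199 and Csf1r at 127. Over the 9 macrophage genes the summed level was 47.7 to 96.2 CPM in dKO, 29.5 to 128 in TIFAB_KO, 41.9 to 54.8 in miR-146a_KO and 17.4 to 35.9 in WT. The highest dKO sum was that of replicate 3, where Vcam1 alone had 82.0 CPM. The mean deviation over the 7 genes past the filter was -0.68 in that library, within the WT range. The part of monocytes in the differences was not tested.

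Stromal and endothelial cells also make Vcam1. Their 20 genes summed to 210 to 275 CPM in dKO, 223 to 315 in TIFAB_KO, 234 to 277 in miR-146a_KO and 281 to 304 in WT, led by Pecam1 at 91.8, Vwf at 67.0 and Eng at 49.5 CPM, which progenitors and megakaryocytes express too. Some genes of this list were near 0, with means of 0.009 CPM for Cldn5, 0.018 for Col3a1, 0.016 for Lum and 0.126 for Cdh5. These were named for their low level, while 9 of the 20 genes passed the filter. Every dKO and miR-146a_KO sum lay below every WT sum, and the list mean correlated at 0.10 with the macrophage mean. Their part in the differences was also not tested. Correlations with the macrophage mean were -0.30 for erythroid, -0.16 for dendritic cell, 0.13 for late granulocyte, -0.004 for B-lineage and 0.50 for T and NK cell list means, the last over 3 tested genes led by Nkg7 at 220 CPM. The summed level of the 13 late granulocyte genes with a row was 87.2 to 700 CPM in dKO, highest in replicate 3, 136 to 340 in TIFAB_KO, 130 to 181 in miR-146a_KO and 104 to 153 in WT. Of the 9 granulocyte genes tested, 9, 9 and 8 had a log2 difference above 0 in dKO, TIFAB_KO and miR-146a_KO against WT, with medians of 1.31, 0.83 and 0.54, the one in dKO larger than the 0.79 of the macrophage genes. B-lineage genes, 4 tested of 9 with a row, summed to 15.6 to 27.3 CPM in dKO, 15.2 to 18.1 in TIFAB_KO, 26.8 to 37.2 in miR-146a_KO and 15.2 to 19.8 in WT. Every miR-146a_KO sum lay above every WT sum, and the medians were 0.37 in dKO, -0.74 in TIFAB_KO and 1.31 in miR-146a_KO against WT. Limma called 0 genes of both lists in these comparisons, where 0 to 2 of a list and 606 to 1668 of all 11867 genes had an unadjusted p under 0.05. The part of these cells was not tested. The 4 globin genes of the erythroid list had 0 reads in all libraries. This is not read as absence of their RNA, since the gene annotation used in counting is not given. The 17 erythroid genes with a row, the globin genes among them, summed to 2049 to 3197 CPM in dKO, 1868 to 2121 in TIFAB_KO, 2083 to 2554 in miR-146a_KO and 2749 to 3496 in WT. Erythroid sums were thus lower in every TIFAB_KO and miR-146a_KO library than in every WT library, and their part in the differences of the macrophage genes was not tested.

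The summed level of genes of the progenitors that the sort keeps was higher in TIFAB_KO than in WT. Their 12 genes, with Mpo the largest, summed to 10706 to 15191 CPM in dKO, 16975 to 19317 in TIFAB_KO, 12564 to 15208 in miR-146a_KO and 9577 to 15217 in WT, so that every TIFAB_KO library lay above every WT library. In TIFAB_KO against WT, 7 of the 12 log2 differences were above 0, with a median of 0.54, and limma called 0 of them, with 8 at an unadjusted p under 0.05. Over all 11867 genes tested in that comparison, limma called 0.0169%, and 606 had an unadjusted p under 0.05. In dKO against WT the median was 0.04 and in miR-146a_KO against WT 0.20. The part of this shift in the differences of the macrophage genes was not tested.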

How the data were processed

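RNA of LK cells went through Ovation RNA-Seq System v2 amplification, was made into Nextera XT libraries and sequenced on a HiSeq2500, per the labels. Per the submitters' processing notes, TopHat, mm10, featureCounts and limma were used; the sources used here give no versions, gene annotation or use of strand in counting. The authors deposited log2 CPM values in the form of voom, where 0.5 is added to the reads and 1 to the library total. Whole reads were recovered from 100% of values within 0.01 read, and CPM values printed here come from those reads. All 13 columns were used.

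The test was limma 3.58.1 in R 4.3.3 on the deposited log2 CPM, with 1 mean per group over 13 libraries (residual degrees of freedom 9), a variance trend, a filter at a mean of 0 log2 CPM (11867 genes) and Benjamini-Hochberg adjustment within a contrast. It was tested on simulated data. Differences of C1qa and Cd5l come from the same fit on every row with a read. Positions and lengths are from GENCODE M21 (GRCm38, the mm10 build) and promoter windows from RefSeq. Shares and floors cover counting error only.

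The 9 genes and all lists were chosen with earlier results of these data known. Named genes are the 9, up to 3 genes of highest level per list where a list had no call, and the closest genes by Pearson r (10 for the mean of the 7 z-scored genes, 10 with group means removed and 3 per gene), leaving out unnamed loci. Genes named outside this rule are given as picked after their values were seen, or as markers near 0 or of the sort.

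Alternatives were dropping the filter or raising it to 3 log2 CPM, median centring, limma-voom weights, a pseudocount of 1 CPM, a replicate block, only the groups compared, each library left out in turn, and both libraries that stand apart left out. Some genes that the rules would name are not reported here.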

Additional observations from a re-analysis of the deposited data

Results flagged for a closer look

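In the 4 dKO libraries, replicate 4 stood apart for 2 of the 9 genes by Dixon's criterion, the gap to the nearest library divided by the range, set against its 95% critical value for 4 samples. For C1qa the ratio was 0.930, with 6 reads in replicate 4 and 0 reads in the other 3, whose log2 values are set by the added 0.5 read and the library total alone, so that this ratio says no more than that 1 library had reads. For Hmox1 it was 0.855, with 13.04 CPM in replicate 4 and 4.09 to 4.84 CPM in the other 3. Chance flags about 1 in 20 groups, and the 9 genes vary together, so these are not independent. The genes were also chosen by levels in these libraries, and both ratios are a description. The other 7 genes stayed under the critical value, Vcam1 most closely with 0.792 for replicate 3. Groups of 3 libraries were not examined.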

How the results depend on the processing

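Of 125 medians of the 9 genes computed under alternatives, 7 changed sign, 2 in dKO against TIFAB_KO and 5 in dKO against miR-146a_KO, and of 1125 single-gene values 46 changed sign. Leaving out 1 library in turn gave medians of 0.38 to 1.20 in dKO against WT, 0.93 to 2.29 in TIFAB_KO against WT, 0.75 to 1.14 in miR-146a_KO against WT, -1.47 (without TIFAB_KO replicate 1) to 0.15 (without TIFAB_KO replicate 3) in dKO against TIFAB_KO, -0.37 to 0.37 in dKO against miR-146a_KO and -2.07 to -0.91 for the interaction. A pseudocount of 1 CPM lowered the medians against WT to 0.59 in dKO, 1.25 in TIFAB_KO and 0.60 in miR-146a_KO.

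Counts of genes called over the whole table were unstable. Leaving out 1 library gave 4 (without WT replicate 2) to 336 (without dKO replicate 4), with 28 without TIFAB_KO replicate 3 and 5 without WT replicate 1, against 8 for dKO against WT, 0 (when dKO replicate 1, WT replicate 2 or 3, a single miR-146a_KO library, or TIFAB_KO replicate 2 or 3 was left out) to 44 (without TIFAB_KO replicate 1), with 4 without WT replicate 1, against 2 for TIFAB_KO against WT, 4 (without miR-146a_KO replicate 2 or 3 or WT replicate 1 or 2) to 12, with 6 without WT replicate 3, against 10 for miR-146a_KO against WT, 3 to 278 (without dKO replicate 4), with 124 without TIFAB_KO replicate 2, against 4 for dKO against TIFAB_KO, 2 (without miR-146a_KO replicate 2) to 5, with 3 without dKO replicate 2, against 6 for dKO against miR-146a_KO, and 0 to 1 (without TIFAB_KO replicate 1) against 0 for the interaction. Fitting only the groups compared called 13 in dKO against WT, 1 in TIFAB_KO against WT and 89 in miR-146a_KO against WT, and no filter called 0 in TIFAB_KO against WT. The cause was not tested. Of 18 same-numbered pairs of libraries, 2 had a correlation of deviations over 0.1, and the range was -0.197 to 0.229. Pairs of different number were not compared, so whether replicate numbers pair the libraries was not tested. With the replicate block, which leaves the single replicate 4 without weight, 281 genes were called in dKO against WT, Vcam1 among them. The block called 146 in dKO against TIFAB_KO and 3 in dKO against miR-146a_KO. Depth limits C1qa and Cd5l, which had 35 and 199 reads in all.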
